A study of Mus musculus with 2 samples.

Results

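The 6 genes described here encode the sarcomeric myosin heavy chains of skeletal muscle: Myh1, Myh2, Myh4 and Myh7 of adult fibers, and Myh3 and Myh8 of developing and regenerating muscle. They were chosen by symbol, and each matched 1 of the 19059 features that were counted. The data were single-nucleus RNA sequencing (snRNA-seq) of tumors from the dFLEx CDS mouse, in which a conditional CIC::DUX4 fusion gene is switched on by Cre and FLPE recombinases. All 8 tumors carried the same genotype, dFLEx CDS +/-, and came from hind limb muscle electroporated with plasmids that express both recombinases. Of the matrices, 4 came from untreated mice and 4 from mice given Minnelide, a water-soluble prodrug of the transcription inhibitor triptolide, at 0.42 mg/kg for 21 days. The age of the mice is not in the labels, and host muscle fibers can be part of a tumor sample taken from muscle. Each matrix was taken to be 1 tumor, since the series design gives 4 tumors per group, and the tumor is the replicate throughout. Nothing in the labels ties a tumor to a litter, a day or a sequencing run, so a run and the treatment cannot be told apart. Tumor numbers follow the order of the files and are names only.

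A myosin heavy chain is the motor of the thick filament, and a muscle fiber is classed by the isoform it uses. Myh7 encodes the slow type I chain, Myh2 the fast type IIA chain, Myh1 the type IIX chain and Myh4 the type IIB chain, which shortens fastest and prevails in the mouse gastrocnemius. Myh3 (embryonic) and Myh8 (perinatal) are replaced by the adult chains after birth and return for a time in fibers that regenerate. A fiber holds many nuclei, which can transcribe different isoforms where a fiber is changing type.

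The matrices held 72338 called nuclei, of which 59907 were retained, 4470 to 10368 per tumor. UMIs per deposited matrix ranged from 18487409 to 73211599, and the median per nucleus from 883 to 4031. Nuclei were assigned to classes from marker genes that include none of the 6 myosins, and the clustering did not use the myosins. By CIC::DUX4 target genes such as Etv1 and Etv4, 36230 nuclei were named tumor-like. These genes set the name, so the count does not check it, and their UMIs were also found in other classes. Another 6358 nuclei were myocyte-like, 7120 fibroblast-like, 3145 endothelial-like, 1718 macrophage-like, 895 pericyte-like and 751 osteoclast-like, and 3690 were left unnamed. The number of myocyte-like nuclei was uneven, with 1264, 154, 450 and 601 in untreated tumors 1 to 4 and 394, 3375, 67 and 53 in Minnelide tumors 1 to 4. They fell in 3 clusters: one of 4966 nuclei, 66.8% of them from Minnelide tumor 2, one of 1192 nuclei, 99.8% from untreated tumor 1, and one of 200 shallow nuclei with a median of 1331 UMIs. Barcodes were shared between tumors in 4 pairs, each of the untreated and the Minnelide tumor with the same number (132, 49, 111 and 63 barcodes in pairs 1 to 4), and none of these 355 barcodes had the same UMI total in both tumors. Of the myocyte-like nuclei, 38 carried such a barcode. A tumor-like cluster of 6501 nuclei, 96.7% of them from untreated tumor 4, was shallow, with a median of 757 UMIs. It also had raised markers of myocytes, fibroblasts, endothelial cells and pericytes. At a lower clustering resolution, and without doublet removal, a cluster of like makeup (6582 and 7271 nuclei) was left unnamed. The tumor-like values of untreated tumor 4 depend on this naming.

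All genes but Myh7 lie in a cluster on mouse chromosome 11 (GRCm39, GENCODE M39), all on the plus strand and in the order Myh3 (chr11:66969126-66993117), Myh2 (chr11:67061838-67088989), Myh1 (chr11:67089132-67116631), Myh4 (chr11:67128336-67151274) and Myh8 (chr11:67167746-67199462). Myh7 lies on the minus strand of chromosome 14 (chr14:55208141-55232084). The genes have 38 to 41 exons, and their coding sequences are 5808 to 5829 bases long. Shares of UMIs and shares of UMIs per kilobase of coding sequence therefore differed by at most 0.0414 percentage points, and levels are compared between genes on the per-kilobase scale.

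The coding sequences are alike, which bears on every value below, because reads or probes in a shared stretch cannot be given to 1 gene. Myh1 and Myh2 were identical at 91.1% of aligned coding bases, with a longest identical run of 268 bases, and 20.5% of all windows of 50 bases in Myh1 also occur in Myh2. Myh1 and Myh4 were identical at 90.2%, and 10.99% of such windows of Myh1 occur in Myh4. Myh3 was 81.1% to 82.3% identical to the other genes of its cluster, and Myh7 was 78.7% to 79.3% identical to the other 5. The nearest relative of Myh7 was the cardiac gene Myh6, with 92.1% identity. The stretch of 60 coding bases that is most alike in all 6 genes lies near the end of the rod and differs from Myh4 at 0 or 1 base. It is shown for Myh4, where Myh8 has the same letters.

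Myh4, coding bases 5293 to 5352: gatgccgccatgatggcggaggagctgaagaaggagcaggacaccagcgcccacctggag

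The least alike stretch of the same length shows what can tell the paralogs apart. Capitals mark bases that differ from Myh4, 12 in Myh1, 17 in Myh2, 19 in Myh8, 22 in Myh3 and 23 in Myh7.

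Myh4, coding bases 5482 to 5541: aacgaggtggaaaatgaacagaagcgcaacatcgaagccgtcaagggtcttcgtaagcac
Myh1, coding bases 5491 to 5550: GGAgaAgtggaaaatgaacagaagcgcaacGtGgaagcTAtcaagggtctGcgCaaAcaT
Myh2, coding bases 5491 to 5550: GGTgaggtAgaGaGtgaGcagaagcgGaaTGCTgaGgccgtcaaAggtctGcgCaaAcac
Myh8, coding bases 5479 to 5538: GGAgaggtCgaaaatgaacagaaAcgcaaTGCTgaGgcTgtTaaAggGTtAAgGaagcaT
Myh3, coding bases 5473 to 5532: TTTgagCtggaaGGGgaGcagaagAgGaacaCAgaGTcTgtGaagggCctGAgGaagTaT
Myh7, coding bases 5470 to 5529: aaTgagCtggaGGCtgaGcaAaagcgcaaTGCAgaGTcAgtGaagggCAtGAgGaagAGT

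The labels describe a 3′ kit and do not give the annotation or probe set that was counted, so UMIs of Myh1, Myh2, Myh4 and Myh8 may be shared among these genes in the counting. Where a level of one of them is low beside a high level of another, it is uncertain for this reason.

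The sequences before the start sites were also related. Promoters of 300 bases from RefSeq (GRCm38.p6) were found for all 6 genes, and words shared by at least 4 of them are in capitals here. The run TTCTAATTATATCC occurred in Myh1, Myh2, Myh4 and Myh8, and these 4 were the only ones that held it among 32851 promoters (0.0122%). The run TCAAATTAT occurred in the same 4 genes and in 0.1005% of all promoters. The run TATAAAAG, which holds a TATA box, occurred in Myh1, Myh2, Myh3 and Myh4 and in 1.18% of all promoters. Words were searched on the gene's strand. In Myh2 the last word starts 10 bases after the annotated start, so it is outside the stretch shown, which runs from 10 bases before the first word to the start site.

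Myh1, chr11:67199876-67200101, plus strand, 226 bases: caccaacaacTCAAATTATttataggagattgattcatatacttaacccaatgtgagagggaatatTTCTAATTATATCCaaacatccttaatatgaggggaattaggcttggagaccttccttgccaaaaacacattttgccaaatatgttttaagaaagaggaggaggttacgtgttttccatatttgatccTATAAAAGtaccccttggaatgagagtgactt
Myh2, chr11:67170844-67171026, plus strand, 183 bases: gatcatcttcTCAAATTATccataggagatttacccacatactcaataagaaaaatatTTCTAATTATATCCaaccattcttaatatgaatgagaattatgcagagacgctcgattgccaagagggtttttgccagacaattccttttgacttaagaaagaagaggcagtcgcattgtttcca
Myh4, chr11:67237615-67237811, plus strand, 197 bases: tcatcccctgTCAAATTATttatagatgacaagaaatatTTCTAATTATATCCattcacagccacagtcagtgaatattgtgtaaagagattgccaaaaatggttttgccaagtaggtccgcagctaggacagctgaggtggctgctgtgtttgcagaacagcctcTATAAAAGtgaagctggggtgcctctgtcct
Myh8, chr11:67277010-67277123, plus strand, 114 bases: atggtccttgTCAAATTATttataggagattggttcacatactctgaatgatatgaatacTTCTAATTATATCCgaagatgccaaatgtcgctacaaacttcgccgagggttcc

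The 14-base run began 160, 125, 158 and 54 bases before the start of Myh1, Myh2, Myh4 and Myh8. The MEF2 consensus, searched on both strands, was in the promoters of Myh1, Myh4 and Myh8 and in 3.19% of all promoters. The E-box CANNTG was in those of Myh3, Myh4, Myh7 and Myh8 and in 72.3% of all. A match describes letters and is not evidence of a bound site.

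Myh4 was the most abundant myosin of the myocyte-like nuclei, with levels given here in CPM, the UMIs of a gene among all UMIs of the class in a tumor, scaled to 1000000. It measured 1552, 2061, 2456 and 1314 CPM in untreated tumors 1 to 4 and 671, 456, 2509 and 1757 CPM in Minnelide tumors 1 to 4. The means were 1846 ± 512 CPM (SD, n = 4) and 1348 ± 961 CPM (SD, n = 4), and the groups overlapped, with both the lowest and the highest tumor in the Minnelide group. Per kilobase it exceeded Myh1 in 8 of 8 tumors and Myh2 in 7 of 8.

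Myh1 followed at 1087, 2036, 1523 and 978 CPM in the untreated tumors and at 584, 372, 300 and 1053 CPM in the Minnelide tumors. The means were 1406 ± 481 and 577 ± 339 CPM (SD, n = 4 each). Only Minnelide tumor 4 reached into the untreated range. Per kilobase Myh1 was above Myh2 in 7 of 8 tumors, and above Myh3, Myh7 and Myh8 in 8 of 8.

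Myh2 measured 218, 325, 417 and 490 CPM in the untreated tumors and 1316, 230, 216 and 81.4 CPM in the Minnelide tumors. Minnelide tumor 1 stood apart: there Myh2 was the leading gene per kilobase, above Myh4 and Myh1, and took 42.9% of the UMIs of the 6 genes. In the other 7 tumors its share was 2.52% to 21.3%.

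Myh7, the slow chain, was the most uneven. It measured 87.7, 1.92, 89.9 and 58.9 CPM in the untreated tumors and 414, 1.81, 0 and 0 CPM in the Minnelide tumors. The value of untreated tumor 2 was 1 UMI, and in Minnelide tumors 3 and 4 no UMI was found in 67 and 53 nuclei. Minnelide tumor 1 was again the highest, and the mean of its group, 104 ± 207 CPM (SD, n = 4), rests on it.

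The developmental chains were low but present in every tumor. Myh3 measured 48.3, 40.4, 55.3 and 11.4 CPM in the untreated and 65.9, 12.98, 39.1 and 98.9 CPM in the Minnelide tumors. Myh8 measured 52.3, 44.3, 85.7 and 40.6 CPM in the untreated and 16.2, 4.97, 3.004 and 239 CPM in the Minnelide tumors, where 3.004 CPM was 1 UMI. Per kilobase Myh8 exceeded Myh3 in 5 of 8 tumors and Myh3 exceeded Myh8 in 3, so these neighbors in the order did not separate, nor did either from Myh7 (4 of 8 tumors each).

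**Figure D1:**
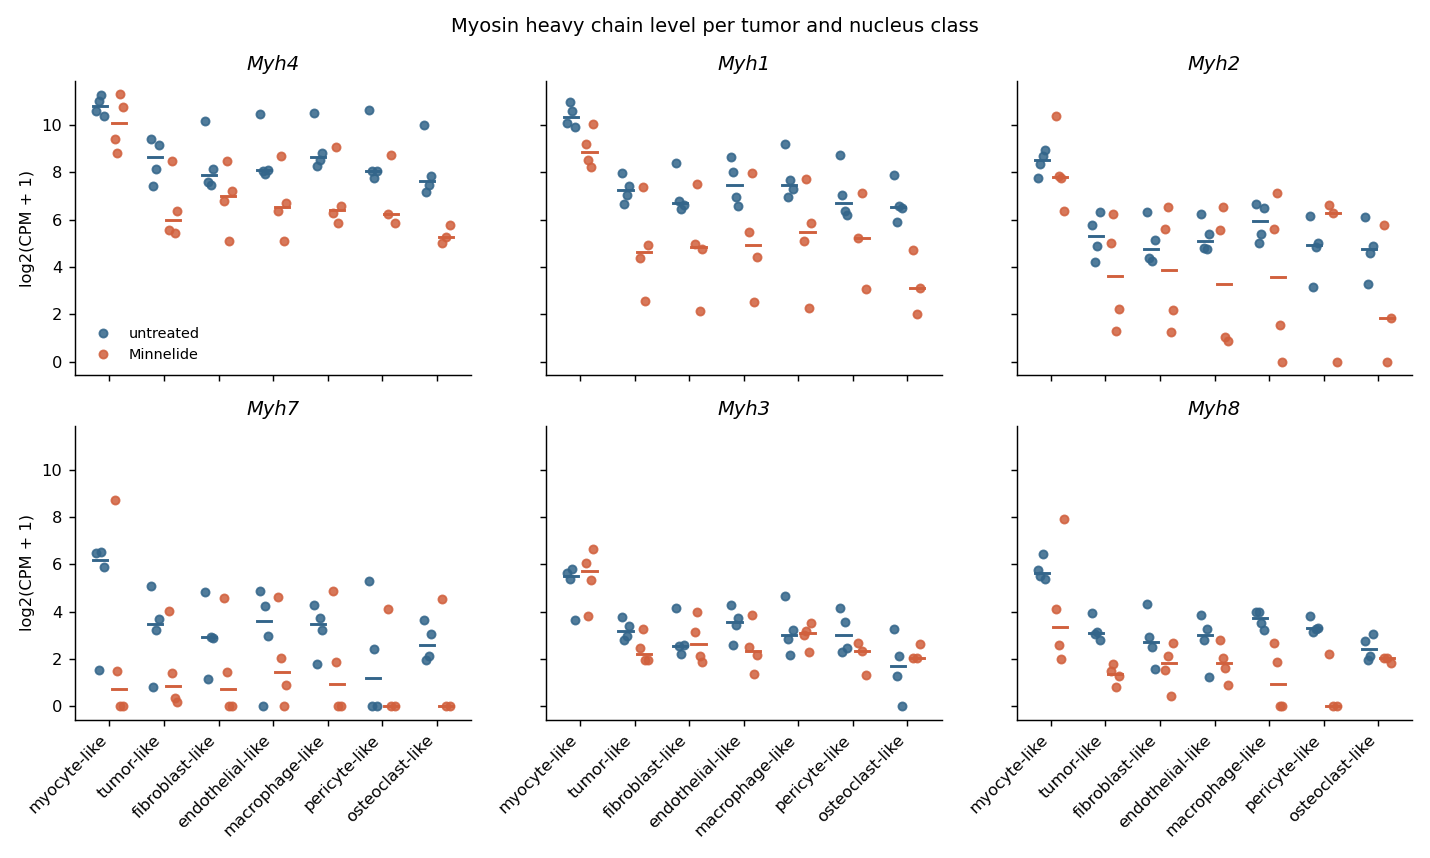
Level of each myosin heavy chain, as log2(CPM + 1), in the 7 named nucleus classes, with a point per tumor (blue untreated, orange Minnelide) and a bar at the group median; a class is shown where a tumor held at least 50 nuclei of it. Among these classes Myh1 was highest in the myocyte-like nuclei of all 8 tumors and Myh4 in 6 of 8, the exceptions being untreated tumor 1 (1607 CPM in pericyte-like against 1552 in myocyte-like nuclei) and Minnelide tumor 2 (545 CPM in macrophage-like against 456).

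Myh3 and Myh8 were found in few nuclei. Myh3 was detected in 2.00% to 11.3% of myocyte-like nuclei and Myh8 in 1.49% to 7.20%. In untreated tumor 3, 19 of 450 nuclei held Myh3, 31 held Myh8 and 9 held both, against 1.31 if the genes were independent. Tumors differed in this: the counts of untreated tumor 1 were 77, 91 and 7 of 1264 nuclei, against 5.54. In untreated tumor 1 these genes were split by cluster, with 373 CPM of Myh3 and 364 CPM of Myh8 in its 74 nuclei of the largest cluster, and 15.5 and 20.8 CPM in its 1190 nuclei of the other.

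The small cluster of 200 shallow nuclei carried much more myosin per UMI. In untreated tumor 2 the 6 genes together made 19580 CPM there and 2649 CPM in the largest cluster. In Minnelide tumor 3, Myh4 made 11520 CPM there and Myh1 40.4 CPM, the latter 2 UMIs.

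A myocyte-like nucleus was typed by its leading myosin where it held at least 5 UMIs of the 6 genes and at least 66.7% of them came from 1 gene. Enough UMIs were found in 770, 92, 311 and 297 nuclei of untreated tumors 1 to 4 and in 251, 1064, 44 and 29 nuclei of Minnelide tumors 1 to 4, together 2858 of 6358. The myosins chose these types, so the shares are descriptions without a test, and their intervals (exact Clopper-Pearson, 95%) cover counting error only. For a share of 0 the limit given is the one that 3 counts would make, not an interval.

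The same rule also typed nuclei outside the muscle class, which gives its background. It found enough myosin UMIs in 68.1% of tumor-like nuclei in untreated tumor 1, against 60.9% of its myocyte-like nuclei, and in 0.230% to 8.92% of tumor-like nuclei in the other 7 tumors, against 31.5% to 69.1%. Of the tumor-like nuclei so typed, Myh4 led 59.1%, 36.8%, 41.0% and 45.5% in untreated tumors 1 to 4 and 15.4%, 44.8%, 92.9% and 34.5% in Minnelide tumors 1 to 4, the 92.9% being 13 of 14 nuclei. Myh1 led 0% to 27.6% of them. In Minnelide tumor 1, Myh2 led 14.6% and Myh7 10% of its 130 typed tumor-like nuclei. A leading myosin is therefore a label of the UMIs in a nucleus, and how many of the typed myocyte-like nuclei owe it to background was not tested.

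Nuclei led by Myh4 were the most frequent type in 7 of 8 tumors, at 48.7%, 53.3%, 39.9% and 51.9% in the untreated tumors and 27.9%, 36.8%, 72.7% and 51.7% in the Minnelide tumors. The exception was Minnelide tumor 1, where nuclei led by Myh2 made up 32.7%. With every nucleus thinned to 1000 UMIs, Myh4 was first in 5 of 8 tumors, since Myh1 then led 45 nuclei against 42 in untreated tumor 4 and 67 against 64 in Minnelide tumor 2. Elsewhere Myh2 led 0% to 10.8% of typed nuclei, the 0% being 0 of 29 nuclei in Minnelide tumor 4, which by 3 counts allows up to 10.3%. Myh1 led 14.7%, 23.9%, 29.6% and 24.6% in the untreated and 11.6%, 18.5%, 6.82% and 34.5% in the Minnelide tumors.

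Nuclei led by Myh7 made up 15.9% (40 of 251, interval 11.6% to 21.1%) in Minnelide tumor 1. They made up 1.95% to 2.25% in untreated tumors 1, 3 and 4 and 0 of 92, 1064, 44 and 29 nuclei in the remaining tumors. The 0 of 1064 in Minnelide tumor 2 allows, by 3 counts, a share of up to 0.282%. Myh3 led 0% to 3.45% and Myh8 0% to 3.45% of typed nuclei, never more than 6 nuclei of a tumor.

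**Figure D2:**
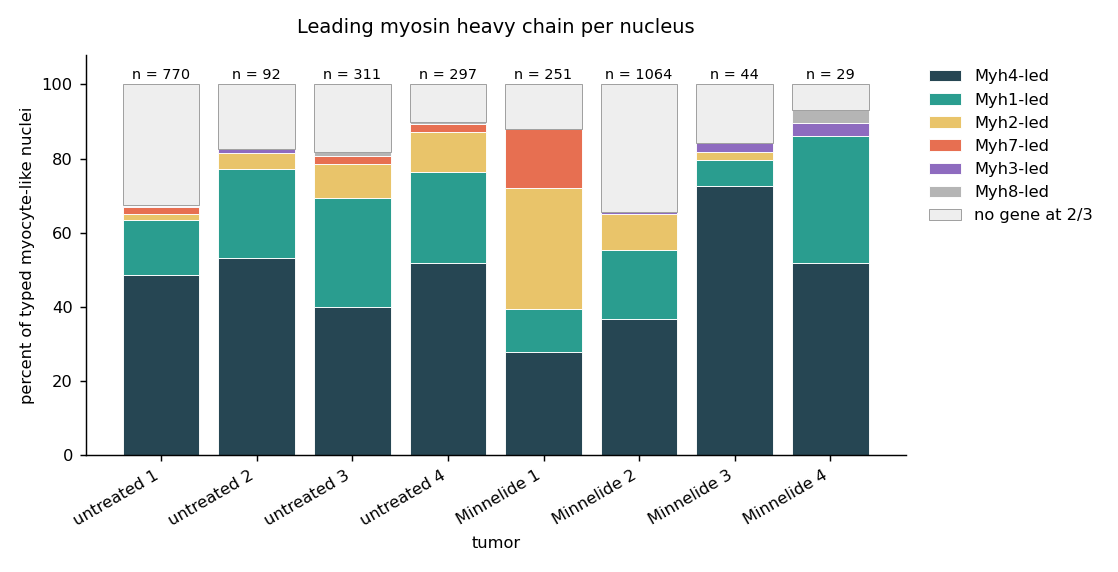
Percent of typed myocyte-like nuclei by leading myosin in each tumor, with the number typed above the bar; light gray is nuclei where no gene held 66.7% of the myosin UMIs. Minnelide tumor 1 is the only one where Myh2 and Myh7 together led more nuclei than Myh4.

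In the remaining typed nuclei, 758 in all, no gene reached 66.7%. They were 10.1% to 32.6% of typed nuclei in the untreated and 6.90% to 34.3% in the Minnelide tumors. Myh1 with Myh4 were the top genes in 53.7% of them, Myh1 with Myh2 in 27.6%, Myh2 with Myh4 in 10.0% and Myh2 with Myh7 in 1.19%. Among nuclei with at least 20 myosin UMIs, the leading gene held a median of 82.2%, 87.5%, 96.7% and 96.3% in untreated tumors 1 to 4 and of 90.5%, 71.7%, 100% and 99.4% in Minnelide tumors 1 to 4. Untreated tumor 1 and Minnelide tumor 2, the lowest of their groups, had the highest level of the 6 genes in tumor-like nuclei within them (1041 and 610 CPM), but untreated tumor 2, the next lowest, had the lowest level of its group (304 CPM). The part of such background in the mixed nuclei was not tested.

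Nuclei led by Myh1 were compared with nuclei led by Myh4 of the same tumor in the 6 tumors that held at least 20 of each, with the tumor as a block. Of 6388 genes tested apart from the myosins that set the types, 49 were higher and 21 lower by edgeR's quasi-likelihood test at an adjusted p under 0.05 (0.767% and 0.329% of the genes tested, 1.1% in all). Nuclei led by Myh2 were compared in the same way in 4 tumors, where 134 of 6484 genes were higher and 94 lower (2.07% and 1.45%, 3.52% in all). Both comparisons use nuclei led by Myh4, so their gene lists share controls. Of the calls, 52 genes were in both, 74.3% of the Myh1 list and 22.8% of the Myh2 list. DESeq2 called 83 and 187 genes. The first count fell from 70 to 40, 26 and 42 without untreated tumor 3, untreated tumor 4 or Minnelide tumor 1. The second changed from 228 to 88, 92 and 344 without untreated tumor 4, Minnelide tumor 1 or Minnelide tumor 2.

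Genes of the fast fiber list that passed were lower in both comparisons. In nuclei led by Myh1, 0 of 10 were higher and 2 of 10 lower against 0.767% and 0.329% of all genes, and the list's median log2 fold change was -0.54 against -0.0039 for all genes. In nuclei led by Myh2, 0 were higher and 3 of 10 lower against 2.07% and 1.45% of all genes, with a median of -0.57 against -0.02. Mybpc2, the fast isoform of myosin-binding protein C, measured 148.8 to 1172 CPM in the Myh4-led nuclei of the 6 tumors and 47.0 to 505 CPM in the Myh1-led nuclei, lower in 6 of 6. In the Myh2-led nuclei it measured 22.8, 44.4, 16.8 and 23.6 CPM in untreated tumors 3 and 4 and Minnelide tumors 1 and 2, the first from 2 UMIs, and every value was below every Myh4-led one. Its log2 fold change was -1.30 (SE 0.240, adjusted p = 0.0150) in the Myh1 comparison and -4.19 (SE 0.370, adjusted p = 7.07e-05) in the Myh2 comparison. The call in the Myh1 comparison was lost without untreated tumor 3 (edgeR adjusted p = 0.0640), untreated tumor 4 (0.0712) or Minnelide tumor 2 (0.0502).

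Pvalb, the calcium buffer parvalbumin, was lower in Myh1-led nuclei in 6 of 6 tumors (log2 fold change -1.27, SE 0.185, adjusted p = 0.00211) and in Myh2-led nuclei in 4 of 4 (-2.89, SE 0.429, adjusted p = 0.00260). Actn3, the alpha-actinin of fast fibers, was lower in Myh2-led nuclei in 4 of 4 tumors (-1.996, SE 0.302, adjusted p = 0.00294) and did not pass in Myh1-led nuclei (-0.66, adjusted p = 0.0592). The fast troponin T gene Tnnt3, the fast troponin I gene Tnni2 and the fast calcium pump gene Atp2a1 passed in neither comparison.

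Genes of the slow fiber list rose where they passed. Of 8 slow genes counted, a low-count filter left 4 in the Myh1 comparison, where 2 were higher and 0 lower. It left 3 in the Myh2 comparison, where 2 were higher and 0 lower. In the Myh2 comparison Casq2 measured at most 8.21 CPM in Myh4-led and at least 53.2 CPM in Myh2-led nuclei. A gene this low in Myh4-led nuclei passes such a filter mainly through the other type, so a lower call was unlikely. The part of the filter in these counts was not tested. Myoz2, a calcineurin-binding protein of the Z-disc known from slow muscle, measured 96.3, 34.8, 67.8, 149, 99.5 and 108.1 CPM in the Myh1-led nuclei of untreated tumors 1 to 4 and Minnelide tumors 1 and 2, and 56.2, 8.54, 3.80, 6.22, 2.96 and 26.1 CPM in their Myh4-led nuclei. It measured 490, 526, 275 and 447 CPM in the Myh2-led nuclei of untreated tumors 3 and 4 and Minnelide tumors 1 and 2. It was higher in all tumors compared, by log2 fold changes of 2.24 (SE 0.372, adjusted p = 0.00719) and 5.20 (SE 0.371, adjusted p = 3.73e-05). The values of 8.54 and 2.96 CPM are 1 UMI each, so the fold change depends on how such counts are treated.

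Casq2, the calsequestrin of slow and cardiac muscle, rose by 1.91 (SE 0.381, adjusted p = 0.0234) in Myh1-led and by 3.78 (SE 0.506, adjusted p = 0.00135) in Myh2-led nuclei on the log2 scale. Its call in the Myh1 comparison was lost without untreated tumor 3 (adjusted p = 0.0640), untreated tumor 4 (0.0563) or Minnelide tumor 1 (0.0734). The slow calcium pump gene Atp2a2 did not pass in the Myh2 comparison (log2 fold change 1.28, SE 0.355, adjusted p = 0.0812). Tnnt1, the slow troponin T, did not pass in the Myh1 comparison (1.41, SE 0.422, adjusted p = 0.150).

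Of the developing muscle list, 2 of 6 tested genes were higher in Myh1-led nuclei, against 0.767% of all genes. In Myh2-led nuclei 0 of 2 were higher, against 2.07%. The same low-count filter applied to this list. Tnnt2, the troponin T of embryonic and cardiac muscle, was higher in Myh1-led nuclei in 5 of 6 tumors (log2 fold change 1.92, SE 0.324, adjusted p = 0.00750). The filter left it out of the Myh2 comparison, although it was higher in Myh2-led nuclei in 4 of 4 tumors (median 26.2 against 7.42 CPM). Myl4, also left out there, was higher in 1 of 4. Ncam1, a cell adhesion molecule found along fibers that lack innervation, measured 648 to 1403 CPM in Myh1-led and 356 to 810 CPM in Myh4-led nuclei (0.82, SE 0.177, adjusted p = 0.0384). It was not particular to muscle here: its median was 1019 CPM in tumor-like, 970 CPM in fibroblast-like and 1012 CPM in myocyte-like nuclei. The part of transcripts from other classes in this difference was not tested. The Ncam1 call was lost without untreated tumor 1 (adjusted p = 0.0882), 3 (0.116) or 4 (0.122), without Minnelide tumor 1 (0.0754) and when the leading gene had to hold 80% of the UMIs (0.126). Neither gene tested in the Myh2 comparison, Ncam1 (0.51, SE 0.252, adjusted p = 0.431) or Chrna1 (0.14, SE 0.348, adjusted p = 0.975), passed. Among the other myosin heavy chains, 0 of 3 passed in the Myh1 comparison (1.1% of all genes), where Myh9 and Myh14 had -0.08 and 0.14 (SE 0.157 and 0.162). In the Myh2 comparison 1 of 3 passed (3.52% of all genes). That gene was Myh10, a non-muscle myosin II heavy chain, at 353, 355, 192 and 221 CPM in Myh2-led nuclei of untreated tumors 3 and 4 and Minnelide tumors 1 and 2, and at 45.6, 43.5, 20.7 and 54.1 CPM in their Myh4-led nuclei. Its log2 fold change was 2.67 (SE 0.235, adjusted p = 7.07e-05).

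**Figure D3:**
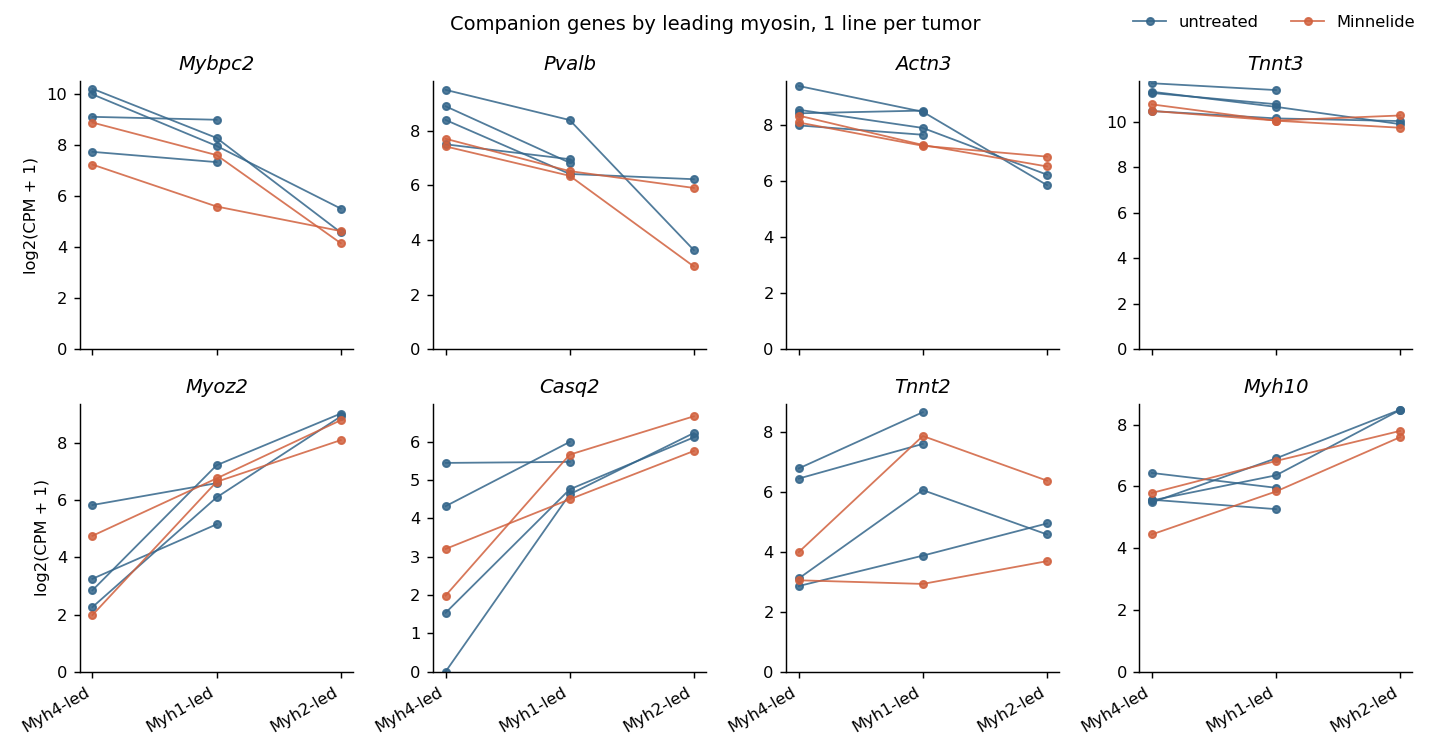
Level of 8 companion genes, as log2(CPM + 1), in nuclei led by Myh4, Myh1 and Myh2, with a line per tumor (blue untreated, orange Minnelide). Mybpc2 and Pvalb step down and Myoz2 and Casq2 step up from Myh4-led to Myh2-led nuclei in every tumor that has both types.

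Outside the lists, some of the smallest p values are given here as genes chosen after their values were seen. Fgf1, a fibroblast growth factor, was higher in Myh1-led nuclei (log2 fold change 1.79, SE 0.172, adjusted p = 0.000204). It measured 187, 17.4, 46.9 and 207 CPM in untreated tumors 1 to 4 and 87.0 and 179 CPM in Minnelide tumors 1 and 2, against 58.3, 17.1, 13.3 and 59.0 CPM and 14.8 and 49.8 CPM in their Myh4-led nuclei. Scn2a, a voltage-gated sodium channel subunit, was higher in Myh2-led nuclei by 5.33 (SE 0.398, adjusted p = 3.73e-05). It measured 558, 1088 and 783 CPM in the Myh2-led nuclei of untreated tumors 3 and 4 and Minnelide tumor 1 but 39.4 CPM in those of Minnelide tumor 2. In their Myh4-led nuclei it measured 3.38 to 34.2 CPM (median 4.86), which was 2 UMIs in Minnelide tumor 1. Such a gene passes the low-count filter mainly through the type where it is high. The direction was therefore nearly set, and the fold change depends on a few UMIs. Kcnab1, a potassium channel subunit, was lower in Myh1-led nuclei (-3.09, SE 0.360, adjusted p = 0.000747). It measured 0 to 40.7 CPM there and 7.72 to 333 CPM in Myh4-led nuclei, so the same limit applies. The sodium pump subunit Atp1b1 was higher in both comparisons, by 2.04 (SE 0.252, adjusted p = 0.000850) and 3.42 (SE 0.271, adjusted p = 4.78e-05).

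Nuclei led by Myh7 reached 20 in 1 tumor only, so they were described and not tested. In Minnelide tumor 1 the 40 Myh7-led nuclei were set beside 70 Myh4-led nuclei. The slow troponin T Tnnt1 measured 1040 CPM in the Myh7-led and 17.8 CPM in the Myh4-led nuclei, a ratio of 58.6, and the slow calcium pump Atp2a2 1590 and 76.9 CPM, a ratio of 20.7. Slow troponin C, Tnnc1, measured 835 CPM in the Myh7-led nuclei and was not detected in the Myh4-led ones, where 3 UMIs would be 8.88 CPM, so it was at least 94.1-fold higher. The slow light chain Myl2 was at least 34.2-fold higher in the same way. Several fast genes went the other way: Tnnt3 measured 92.8 against 1749 CPM and Tnni2 24.8 against 266 CPM. Pvalb was not detected in the Myh7-led nuclei against 172 CPM, at least 9.25-fold lower. The fast list was not uniform, since Mylpf was higher in the Myh7-led nuclei, at 260 against 118 CPM. Casq1 (179 against 198 CPM) and Tnnc2 (142 against 183 CPM) were only slightly lower. The cardiac gene Myh6 measured 192 CPM beside 0 CPM, and since it is 92.1% identical to Myh7 in coding bases, its UMIs here are uncertain. Myh7b, the slow-tonic chain, measured 285 CPM (46 UMIs) beside 5.92 CPM (2 UMIs).

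The other nucleus classes are not known for sarcomeric myosin, so the level there serves as the background of the assay, and the source of these UMIs was not tested. All 6 genes were detected in tumor-like nuclei of every tumor. Myh4 measured 678, 171, 282 and 565 CPM in tumor-like nuclei of untreated tumors 1 to 4 and 46.8, 356, 41.8 and 81.8 CPM in those of Minnelide tumors 1 to 4. The untreated tumors ranked alike by this level and by the number of myocyte-like nuclei (1264, 154, 450 and 601). The Minnelide tumors did not: tumor 2, with 3375 such nuclei, was the highest, but tumor 4, with 53, was above tumor 1, with 394. Whether the 2 are linked was not tested.

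Summed over all retained nuclei except the myocyte-like ones, Myh1, Myh2, Myh3, Myh4 and Myh8 were lower outside than inside the myocyte-like nuclei in 8 of 8 tumors, and Myh7 in 5 of 8. For Myh4 the level outside was 0.0188 to 0.808 of the level inside. The highest ratio was that of Minnelide tumor 2, with 368 CPM outside and 456 CPM inside. In untreated tumor 1, where unnamed nuclei led by muscle genes are part of the outside, Myh4 measured 1075 CPM outside and 1552 CPM inside.

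Detection of a UMI set the classes apart in some tumors and not in others. In untreated tumor 1 a Myh4 UMI was found in 91.6% of myocyte-like nuclei (median 3451 UMIs) and in 94.9% of tumor-like nuclei (median 4916 UMIs). A Myh4 UMI thus did not tell these classes apart in that tumor, and the share is read as background, while the level was 1552 CPM in the former and 678 CPM in the latter. In Minnelide tumor 3 the shares were 65.7% and 16.1% (median 4247 and 3654 UMIs). Myh1 was found in 69.4% and 72.9% of these classes in untreated tumor 1 and in 20.9% and 2.27% in Minnelide tumor 3.

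The makeup of the myosin UMIs differed between the myocyte-like nuclei and the rest. Myh4 took a larger share outside in 7 of 8 tumors, by a median of 14.8 percentage points (range -0.52 to 21.3). In untreated tumors 1 to 4 it made up 66.0%, 56.5%, 59.97% and 66.7% outside and 50.97%, 45.7%, 53.1% and 45.4% inside. In Minnelide tumors 1 to 4 it made up 40.4%, 56.9%, 81.3% and 70.3% outside and 21.9%, 42.3%, 81.8% and 54.4% inside. Myh1 took a smaller share outside in 8 of 8 tumors (outside minus inside, -13.01 to -0.837 points), and Myh2 in 7 of 8. The direction of the Myh4 share was the same in 7 of 8 tumors for tumor-like, fibroblast-like and endothelial-like nuclei taken alone and in 8 of 8 for macrophage-like nuclei.

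For Myh1, Myh2, Myh4 and Myh7 the tumor with the highest share inside the myocyte-like nuclei also had the highest share outside. Minnelide tumor 1, with 42.9% Myh2 and 13.5% Myh7 inside, had 25.4% and 12.3% outside. For Myh3 and Myh8 this was not so: Minnelide tumor 4 had the highest shares inside, 3.06% and 7.39%, but 2.48% and 1.31% outside. The highest Myh3 share outside was 5.24% in Minnelide tumor 3, with 1.27% inside, and the highest Myh8 share outside was 2.13% in untreated tumor 2, with 0.982% inside. Across the 5 or 6 other classes of a tumor the Myh4 share ranged from 56.8% to 61.7% in untreated tumor 3, from 65.1% to 75.6% in untreated tumor 1 and from 58.1% to 79.7% in Minnelide tumor 4. The range was wide in Minnelide tumor 1, from 22.7% in osteoclast-like nuclei (44 myosin UMIs) to 49.7% in fibroblast-like nuclei (1153 myosin UMIs), and the cause was not tested.

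**Figure D4:**
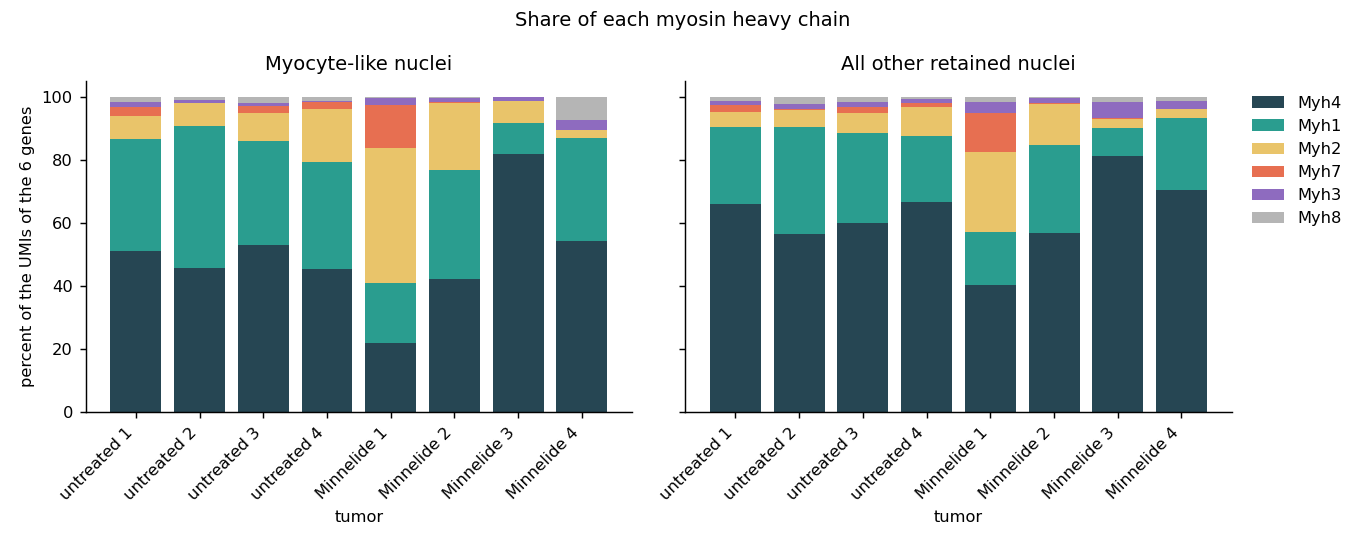
Percent of the UMIs of the 6 myosin genes taken by each, in myocyte-like nuclei (left) and in all other retained nuclei (right) of each tumor. Minnelide tumor 1 shows the Myh2 and Myh7 bands in both panels, and the Myh4 band is taller on the right in 7 of 8 tumors.

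Levels of the genes were correlated across 54 sums of a class in a tumor with at least 50 nuclei. This is a description because the sums of 1 tumor share a library. The sums also span myocyte-like and other classes, and the part of that contrast in the values was not tested. Within the cluster on chromosome 11, Pearson's r of log2(CPM + 1) ranged from 0.621 between Myh2 and Myh8 to 0.935 between Myh1 and Myh4. It was 0.833 between Myh1 and Myh2, 0.704 between Myh4 and Myh8 and 0.650 between Myh3 and Myh8. Myh7 had the lowest value of any pair, 0.398 with Myh4. Its highest, 0.659 with Myh2, was above the lowest values within the cluster. Among other genes, those most like Myh4 were Mybpc2, Atp2a1 and Ckm (0.927, 0.924 and 0.924), the last being muscle creatine kinase. Those most like Myh1 were Atp2a1, Neb and Tnnt3 (0.927, 0.914 and 0.910), and those most like Myh2 were Mybpc1, Trdn and Neb (0.889, 0.885 and 0.874). Mybpc1 encodes the slow isoform of myosin-binding protein C. Myh7 was most like Myl2, Tnnt1 and Igf2 (0.832, 0.823 and 0.711), the first pair being slow fiber genes. Among the genes most like Myh3 were Pfkm and Hspb3 (0.861 and 0.849), and Myh8 was most like Sln, Clk4 and Ctxn3 (0.786, 0.761 and 0.740), where Sln encodes sarcolipin, an inhibitor of the calcium pump.

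The comparison of Minnelide with untreated tumors asks whether the drug group differs in these genes. No myosin passed edgeR's quasi-likelihood test in any of the 4 sets of nuclei, against a background of 0% of genes called in each (0 of 13811 in all retained nuclei, 0 of 10122 in myocyte-like, 0 of 13038 in tumor-like and 0 of 11472 in fibroblast-like nuclei). At an unadjusted p under 0.05 edgeR had 1376, 1108, 1222 and 560 genes, and DESeq2 called 181, 52, 88 and 11. Without Minnelide tumor 2, edgeR called 1 gene over all retained nuclei, and it was none of the 6.

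Myh8 showed the lowest fold change in tumor-like nuclei. It measured 14.3, 7.26, 7.83 and 6.03 CPM in untreated tumors 1 to 4 and 1.80, 2.43, 0.752 and 1.40 CPM in Minnelide tumors 1 to 4, and the groups did not overlap, as was true of 7.01% of all genes tested there. Its log2 fold change was -2.36 (SE 0.406, edgeR adjusted p = 0.530, DESeq2 adjusted p = 6.31e-05). It was -2.04 over all retained nuclei (SE 0.518, edgeR adjusted p = 0.464, DESeq2 adjusted p = 0.0182), where the groups also did not overlap, as for 7.57% of genes. The summed CPM of the 10 myocyte markers in tumor-like nuclei was 1257 to 5203 in the untreated and 352 to 4996 in the Minnelide tumors, with none of the 10 at 0 in any tumor. The part of such muscle transcripts in the Myh8 difference was not tested. In myocyte-like nuclei Myh8 had a log2 fold change of -0.42 (SE 1.08, edgeR adjusted p = 0.932). There, and in fibroblast-like nuclei, the groups overlapped for all 6 genes, while 7.9% and 3.33% of all genes tested had groups without overlap.

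Myh1 had a log2 fold change of -1.38 in myocyte-like nuclei (SE 0.392, edgeR adjusted p = 0.390, DESeq2 adjusted p = 0.0491), and of -1.42 in tumor-like nuclei (SE 0.905, adjusted p = 0.604). Leaving out a tumor at a time kept it between -1.74 and -1.14 in myocyte-like nuclei. Myh4 had -0.54 in myocyte-like (SE 0.495), -1.52 in tumor-like (SE 0.7505) and -1.39 in fibroblast-like nuclei (SE 0.783), with edgeR adjusted p of 0.720, 0.538 and 0.937. Without untreated tumor 1 the last value was -0.42. Myh7 had 0.76 in myocyte-like nuclei (SE 1.36, adjusted p = 0.890), and -5.21 without Minnelide tumor 1. Myh2 and Myh3 were within 0.25 of 0 on the log2 scale in myocyte-like nuclei (SE 0.684 and 0.594), and both turned sign when some tumors were left out.

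**Figure D5:**
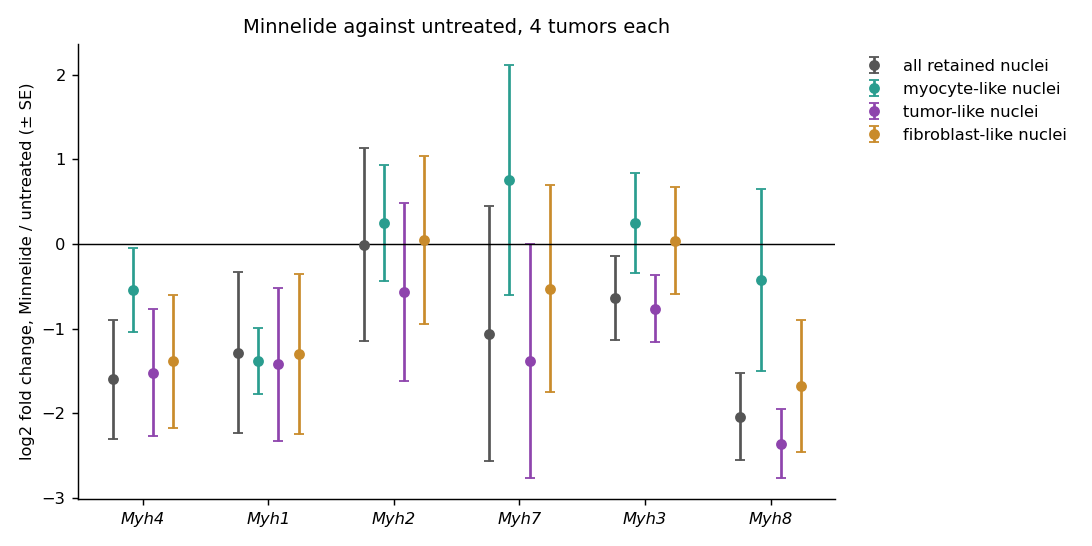
Log2 fold change of each myosin, Minnelide over untreated, with its standard error, from edgeR in all retained, myocyte-like, tumor-like and fibroblast-like nuclei (4 tumors per group). None of the 24 values passed an adjusted p of 0.05, and that of Myh8 in tumor-like nuclei lies farthest below 0, at -2.36.

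The companion lists gave no call either, with 0 genes higher and 0 lower in each list and set of nuclei. Of the fast fiber list, 10 of 10 had negative log2 fold changes in myocyte-like nuclei, with a median of -0.62 against -0.03 for all genes. Its 2 most abundant members there, Myl1 and Tnnt3, had -0.33 (SE 0.393, edgeR adjusted p = 0.803) and -0.82 (SE 0.313, adjusted p = 0.411). The list also had 10 of 10 negative values in tumor-like and fibroblast-like nuclei and 9 of 10 over all retained nuclei. Of the slow fiber list, 7 genes could be tested, 4 with positive and 3 with negative values and a median of 0.03, and its most abundant members, Atp2a2 and Myoz2, had 0.25 (SE 0.451) and -0.76 (SE 0.636). Of the developing muscle list, 3 had positive and 5 negative values, with a median of -0.25, and Ncam1 and Tnnt2 had 0.24 (SE 0.318) and -0.19 (SE 0.780). The median level of Ncam1 was alike in myocyte-like (1012 CPM) and tumor-like nuclei (1019 CPM). The 3 other myosin heavy chains tested in myocyte-like nuclei, Myh9, Myh10 and Myh14, had 0.06, -0.33 and -0.02 (SE 0.225, 0.303 and 0.225), and Myh9 and Myh14 were the most abundant of them. In myocyte-like nuclei the summed myocyte markers themselves were 52303 to 80163 CPM in the untreated and 31161 to 44977 CPM in the Minnelide tumors, without overlap. Most of that sum was Ttn and Neb, the giant filament genes, with medians of 29720 and 11748 CPM over the 8 tumors, while no other marker had a median above 4198 CPM. Its part in the myosin and fast fiber values was not tested.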

How the data were processed

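Nuclei of 8 tumors, 4 untreated and 4 given Minnelide, were profiled by snRNA-seq. The authors deposited raw UMI counts for each gene in each nucleus, produced with bcl2fastq 2.20 and Cell Ranger (7.0.1 in the submitters' processing notes, a later release in the file headers), on mm39 with intronic reads included per the methods. The annotation or probe set counted is not given in the sources used here. Groups came from the labels. Words on response in the file names have no counterpart there and were not used.

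Nuclei under 200 genes or called compromised (posterior 0.75 or more in a mixture of regressions of mitochondrial percent on genes) were dropped. Scrublet removed doublets at an expected 0.8% per 1000 nuclei. The study's miQC, scDblFinder and Harmony were not used here. Clustering (scanpy 1.11.5, 2000 variable genes, 30 principal components, 40 neighbors, Leiden resolution 1) used neither the 6 myosins nor the companion genes. A cluster with raised markers of 5 or more other classes was left unnamed only under a further condition. Another class had to have a marker among its 10 leading genes, and no fewer there than its own class. The macrophage-like cluster and the myocyte-like cluster of 200 nuclei had raised markers of 5 other classes but kept their names. Names rebuilt here may differ from the study's. The 6 genes, the lists and the rules were chosen with earlier results of these data known.

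Counts were summed per tumor and class of at least 50 nuclei and tested with edgeR 4.0.16 (quasi-likelihood, TMM, filterByExpr, Benjamini-Hochberg over all genes tested, threshold 0.05), with the tumor as a block between fiber types. DESeq2 1.42.0 was an alternative. Scripts were tested on simulated data. Other alternatives were RLE size factors, no low-count filter, no doublet removal, Leiden resolution 0.5, nuclei of at least 1000 UMIs, other typing rules, leaving out each tumor and a block of the tumors that share barcodes. Genes named were the 6 myosins, the 3 genes most like each, and companion genes past the test, up to 6 per list, or the 2 most abundant where none passed. A value that this rule selects is not reported here. The p values measure the spread between these tumors.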

Additional observations from a re-analysis of the deposited data

Results flagged for a closer look

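In 18 of 60 groups of 4 tumors, 1 tumor stood far from the other 3 by a gap test at the 95% level. Chance alone flags about 1 in 20 groups only where values are normally distributed. CPM and percents bounded at 0 need not be, and a tumor beside 3 equal values is always flagged. The 18 flags are therefore not read as an excess. The tests are not independent, since they share tumors and genes. None of these flags was weighed for a cause.

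Minnelide tumor 1 was the high tumor for Myh7 in each set of nuclei, at 414 CPM in myocyte-like nuclei (next 1.81), 15.3 CPM in tumor-like (next 1.62), 23.1 CPM in fibroblast-like (next 1.71) and 28.5 CPM in all retained nuclei (next 1.83). It was also high for Myh2 in myocyte-like nuclei, at 1316 CPM (next 230), and for the percent of typed nuclei led by Myh7, at 15.9% (next 0%). Minnelide tumor 2, which held the most myocyte-like nuclei, was high for Myh1 in all retained, tumor-like and fibroblast-like nuclei, at 304.2, 167 and 181 CPM (next 39.5, 29.4 and 30.3). It was high for Myh4 in all retained and tumor-like nuclei, at 425 and 356 CPM (next 103 and 81.8).

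Untreated tumor 1 was high in fibroblast-like nuclei for Myh1, Myh3 and Myh4, at 341, 16.99 and 1142 CPM (next 111, 4.98 and 284), and for Myh3 in all retained nuclei, at 22.2 CPM (next 9.06). Untreated tumor 2 was low for the percent led by Myh7, at 0% (next 1.95%). Minnelide tumor 4 was high for Myh8 in myocyte-like nuclei, at 239 CPM (next 16.2), and for the percent led by Myh8, at 3.45% (next 0.0940%), the latter being 1 of 29 nuclei.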

How the results depend on the processing

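Of 375 alternative values of the myosin fold changes, 339 kept direction and side of the threshold, 33 changed sign and 3 passed the threshold under DESeq2. Over all retained nuclei Myh2 became 0.026 with DESeq2, 0.027 with RLE size factors and 0.0095 with nuclei of at least 1000 UMIs, from -0.0069. In myocyte-like nuclei Myh3 became -0.056 at Leiden resolution 0.5, -0.058 with nuclei of at least 1000 UMIs and -1.24 in the largest myocyte-like cluster alone (an alternative added after seeing the data), and Myh8 became 0.076 with DESeq2. In fibroblast-like nuclei without doublet removal Myh2 became -0.29 and Myh3 -0.31. The cause was not tested.

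Leaving out 1 tumor at a time gave -1.31 to 0.42 for Myh2 in all retained nuclei. In myocyte-like nuclei it gave -1.003 to 0.65 for Myh2, -0.065 to 0.67 for Myh3, -5.21 to 1.20 for Myh7 and -2.71 to 0.21 for Myh8. In fibroblast-like nuclei it gave -0.97 to 0.70 for Myh2, -0.56 to 0.80 for Myh3 and -3.76 to 0.56 for Myh7. Genes called by edgeR for Minnelide ranged from 0 to 1 over all retained nuclei. Genes called ranged from 26 to 83 for Myh1-led and from 88 to 344 for Myh2-led against Myh4-led nuclei.

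DESeq2 called 181, 52, 88 and 11 genes for Minnelide in all retained, myocyte-like, tumor-like and fibroblast-like nuclei, where edgeR called 0. With at least 10 myosin UMIs per typed nucleus, 134 genes were called for Myh2-led nuclei. Thinned to 1000 UMIs per nucleus, the mean percent led by Myh8 was 0% in the untreated and 3.13% in the Minnelide tumors, the latter from 1 of 8 typed nuclei in Minnelide tumor 4, and the mean led by Myh1 went from 23.2% and 17.8% to 29.3% and 13.9%. Of 88 alternative values of companion genes, 77 kept their call and 11 lost it. Few myocyte-like nuclei (53 and 67 in Minnelide tumors 4 and 3) limit what can be seen there. The labels number no tumors. Each Minnelide tumor shared barcodes with 1 untreated tumor, and no barcode was shared between tumors of the same group. The labels do not name these pairs as replicates. The methods state on-chip multiplexing but not which tumors were pooled, so a pool and the treatment cannot be told apart. A block of the barcode pairs was added after seeing the data. It called 0 genes by edgeR in all retained, myocyte-like, tumor-like and fibroblast-like nuclei (650, 987, 611 and 449 at an unadjusted p under 0.05). With this block Myh2 and Myh7 in myocyte-like nuclei became -0.45 and -1.04, and Myh2 and Myh3 in fibroblast-like nuclei -0.98 and -0.028. The paired tumors' deviations from their group means had correlations of -0.398 to 0.138 across genes, so the pairs did not all deviate together.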

Other observations

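The level of myosin in nuclei left unnamed differed between tumors. In untreated tumor 1, 2291 unnamed nuclei with a median of 989 UMIs measured 5484 CPM of Myh4, 2258 CPM of Myh1, 390 CPM of Myh2 and 114 CPM of Myh3. In its myocyte-like nuclei Myh4 measured 1552 CPM and Myh3 48.3 CPM. The cluster that holds most of these nuclei, 2308 in all, had raised markers of myocytes and of 6 other classes, and was led by Myh1 and Myh4 with macrophage genes such as F13a1. In Minnelide tumor 3, 1043 unnamed nuclei with a median of 1936 UMIs measured 13.1 CPM of Myh1 and 3.53 CPM of Myh2.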
